A study of Mus musculus with 9 samples.

Results

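The genes described here were 4 Wnt ligands (*Wnt2*, *Wnt5a*, *Wnt9a* and *Wnt16*), 4 secreted Frizzled-related proteins (*Sfrp1*, *Sfrp2*, *Sfrp4* and *Sfrp5*) and 2 Dickkopf genes (*Dkk2* and *Dkk3*). They were taken by their symbols from the gene lists of the libraries, 10 of 54534 listed features, and read in every library. All 10 had unique molecular identifiers (UMIs, each standing for 1 captured RNA molecule) in stromal cells, from 38 UMIs for *Sfrp5* to 71359 for *Sfrp4*.

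The libraries were single-cell RNA-seq profiles of cells sorted from digested synovial joints of mice of the strain Gdf5-Cre;Tom;Pdgfrα-H2BGFP, aged 11 to 12 weeks. All groups carried the same alleles: *Gdf5*-Cre is active in the embryonic joint interzone and leaves its descendants labelled with Tom, and H2BGFP is made from the *Pdgfrα* promoter. Tom+ cells were therefore descendants of *Gdf5*-expressing cells, and Tom-GFP+ cells were *Pdgfrα*-expressing cells outside that lineage. There were 2 Tom+ and 1 Tom-GFP+ libraries from steady-state joints, which the labels call naive, and 4 Tom+ and 2 Tom-GFP+ libraries from joints injured 6 days earlier, when the right knee was opened beside the patella and the cartilage of the trochlear groove was scratched through its full thickness. The sort sets which cells can be seen. The study describes the Tom-GFP+ libraries as coming from mice matched with the Tom+ ones, but which libraries share a mouse is not given in the sources used here, so the lineages were compared without pairing.

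Wnt ligands are lipid-modified secreted proteins that bind Frizzled receptors on nearby cells, together with the co-receptors Lrp5 and Lrp6 when the signal runs through β-catenin, or with others such as Ror2 when it does not. SFRPs carry a domain like the ligand-binding part of Frizzled and bind Wnt proteins outside the cell. DKK proteins such as Dkk2 bind the Lrp co-receptors, whereas Dkk3 is a divergent family member whose receptors are less settled. In the joint, Wnt signals take part in forming the interzone and in the upkeep of cartilage and bone; *Wnt9a* and *Wnt16* are expressed in developing joints, and *Wnt5a* is the standard example of a ligand that signals without β-catenin.

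The ligand genes lie, on GRCm38, at chr6:17988940-18030585 on the minus strand (*Wnt2*), chr14:28504750-28527448 on the plus strand (*Wnt5a*), chr11:59306928-59333552 on the plus strand (*Wnt9a*) and chr6:22288227-22298522 on the plus strand (*Wnt16*). The antagonists *Sfrp1* (chr8:23411502-23449632), *Sfrp2* (chr3:83766321-83774316), *Sfrp4* (chr13:19623104-19632994) and *Dkk2* (chr3:132085292-132180304) are on plus strands, and *Sfrp5* (chr19:42197971-42202252) and *Dkk3* (chr7:112116017-112159057) on minus strands. The annotated antisense genes *Gm2670* and *Gm26771* overlap *Wnt5a* and *Sfrp2*.

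RefSeq gave promoter sequence for 6 of the 10 genes. Those of *Wnt16*, *Wnt2* and *Dkk2* are shown because each was called between injury states in Tom+ fibroblasts. *Dkk3* and *Sfrp1*, also called there, had no entry in the table. *Sfrp2*, *Wnt9a* and *Sfrp5* had an entry but were not called there, and are not shown. Each is written 5′ to 3′ on the gene's own strand and ends at the base before the annotated start, for *Wnt16* chr6:22287977-22288226, for *Wnt2* chr6:18030586-18030695 and for *Dkk2* chr3:132085042-132085291. Capitals mark matches to CCAAT, which reads ATTGG where it lies on the opposite strand, and to TATAAA.
Wnt16: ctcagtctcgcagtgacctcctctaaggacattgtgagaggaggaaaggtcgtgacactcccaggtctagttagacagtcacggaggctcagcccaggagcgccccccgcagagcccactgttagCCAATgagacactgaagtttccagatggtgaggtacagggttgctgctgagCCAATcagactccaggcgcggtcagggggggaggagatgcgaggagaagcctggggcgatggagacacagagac
Wnt2: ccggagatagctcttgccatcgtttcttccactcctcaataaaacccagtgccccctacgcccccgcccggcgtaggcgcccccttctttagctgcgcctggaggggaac
Dkk2: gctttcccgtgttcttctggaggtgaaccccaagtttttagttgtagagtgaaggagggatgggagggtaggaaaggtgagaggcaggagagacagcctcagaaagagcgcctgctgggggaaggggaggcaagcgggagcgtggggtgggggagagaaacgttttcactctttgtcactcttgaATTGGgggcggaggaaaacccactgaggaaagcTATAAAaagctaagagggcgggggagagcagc
The *Wnt16* promoter held CCAAT ending 121 and 70 bases before the start. That of *Dkk2* held it on the opposite strand ending 61 bases, and TATAAA ending 27 bases, before the start. Searched on both strands, CCAAT was present in 33.9% and TATAAA in 12.4% of all 32851 promoters in the table, while TGANTCA (6.75%) and CTTTGA (13.8%) were also searched. No match was found in the shown *Wnt2* window, nor in those of *Sfrp2*, *Wnt9a* and *Sfrp5*, which are not shown.

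Of 5161 barcodes, 4788 passed the filters, 277 to 826 per library, and 4656 of them were stromal. Total counts were 2866464 to 15033902 UMIs per library. The median per kept cell was 8050.5 to 8647 UMIs in the steady-state libraries and 12223 to 18567 in the injured ones, so depth differed with injury. In Tom-GFP+ injured library 2, 277 of 424 barcodes were kept, and the 90th percentile of the mitochondrial share over its barcodes was 82.3%. The format of the deposited gene list also divided the libraries: it was of the older kind in the 3 steady-state libraries and Tom+ injured library 1, and of the newer kind in the other 5. 12 kept barcodes were found in more than 1 library, at most 2 for any pair of libraries.

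Cells were gated on marker genes, none of them a gene reported here, in a fixed order. Lining cells (699, with *Prg4* and at least 2 of *Clic5*, *Tspan15* and *Htra4*) form the surface layer of the synovium. *Prg4*+ cells without *Thy1* or *Clic5* (308) were kept apart. Universal fibroblasts (735) carried at least 3 of *Dpp4*, *Pi16*, *Sema3c*, *Anxa3*, *Efhd1* and *Limch1*, and other sublining fibroblasts (1278), the reference of every class comparison, had *Thy1* or *Cd34* and met no earlier gate. Cells with *Lrrc15* and *Adam12* numbered 373, all from injured joints. There were also 454 tenocyte-lineage, 156 osteoblast-lineage, 97 chondrocyte-lineage, 100 mural, 183 cycling and 273 unassigned stromal cells.

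For lining, universal, *Lrrc15*+ and mural cells, only some of the markers set outside the gates are given here. Those given were higher than in other sublining cells. The rest, and the markers set outside the chondrocyte-lineage and tenocyte-lineage gates, are not shown, so this check is partial. *Hbegf* was at 2207 UMIs per 1000000 UMIs of the class (CPM) in lining against 54.2 in other sublining cells, *Cd248* at 767 against 229 in universal fibroblasts, *Cthrc1* at 4104 against 1276 in *Lrrc15*+ cells, and *Acta2* at 8965 against 61.1 in mural cells. The osteoblast-lineage gate had *Bglap* at 4909 but *Col2a1* at 10501, above the chondrocyte-lineage gate's 5127, so it also held cartilage-like cells. The gates have soft edges: 279 universal cells had exactly 3 of the 6 markers, 393 other sublining cells exactly 2, and 137 lining cells exactly 2 of the 3 lining markers.

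The genes divided the joint's stromal classes unevenly. Against other sublining cells, lining cells were lower in 9 of the 10 and mural cells in 6. Chondrocyte-lineage cells were lower in 3 and osteoblast-lineage cells in 4 of the 6 antagonists, and *Sfrp5* was called as higher in both; 37.7%, 17.7%, 22.3% and 20.6% of all genes were called in these 4 comparisons. Universal, other sublining and tenocyte-lineage cells carried all of the genes but *Sfrp5*, which had at most 1 UMI in each. In the 110 immune cells of the sort no UMI of *Wnt2*, *Wnt5a*, *Wnt9a*, *Wnt16*, *Sfrp1* or *Sfrp5* was found; *Sfrp4* had 25 UMIs, a pooled level of 24.8 CPM. The heat map of class means shows these levels.

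**Figure D1:**
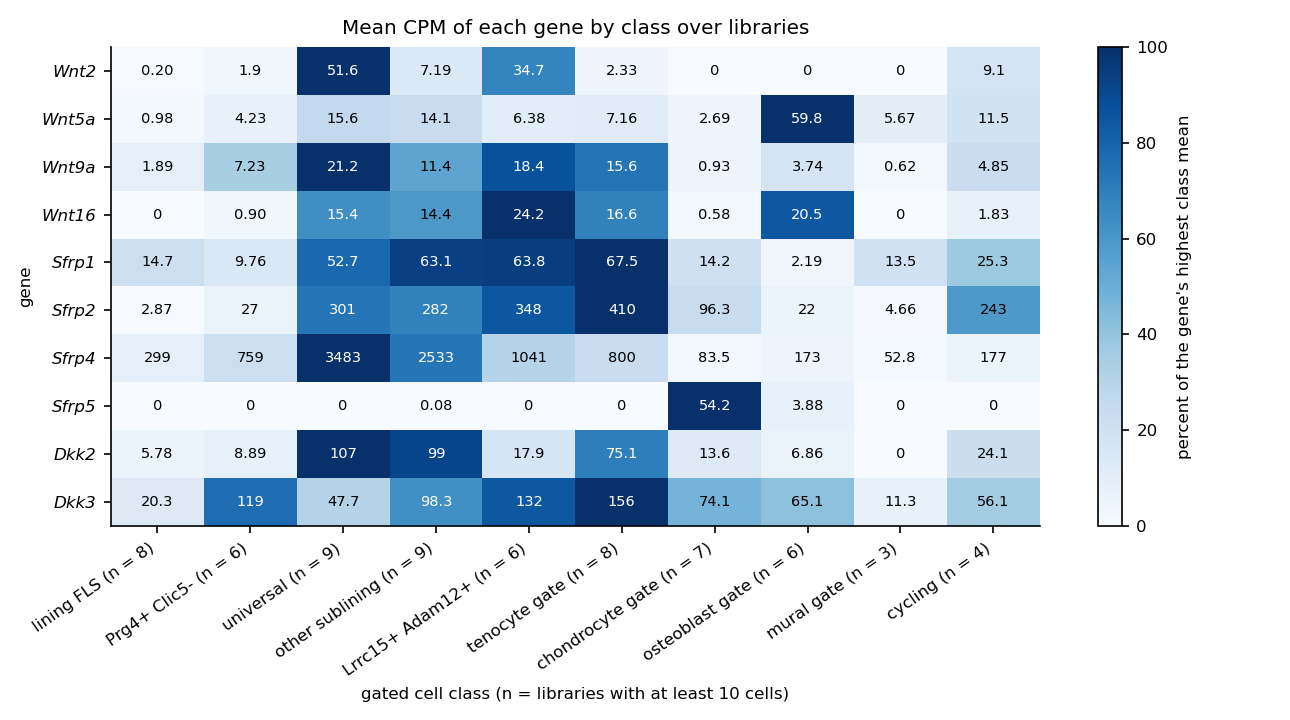
Mean CPM of each gene (rows) over the libraries of each cell class (columns), with colour giving the percent of the gene's highest class mean. The lining column is pale for every gene, *Wnt2* is darkest in universal and *Lrrc15*+ cells, *Wnt5a* in osteoblast-lineage cells and *Sfrp5* in chondrocyte-lineage cells.

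Lining cells had less of the ligands and antagonists than other sublining cells of the same libraries. Of the 10 genes, 9 were lower and none higher at an adjusted p below 0.05 (edgeR quasi-likelihood test, Benjamini-Hochberg adjustment over 9829 genes), which is the meaning of lower, higher, fell and rose throughout. In this comparison 37.7% of all genes were called, 17.1% as higher and 20.6% as lower. The median log2 fold change of the genes was -3.43 (-3.63 with genes of 3 or fewer UMIs at their bound or ratio) against -0.03 for all genes.

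*Dkk2* in lining cells was 24.8 and 2.02 CPM in the Tom+ steady-state libraries, 6.28, 3.05, 1.01 and 2.01 in the Tom+ injured ones and 4.48 and 2.58 in the Tom-GFP+ injured ones. In other sublining cells of the same 8 libraries it was 165 and 209, then 24.0, 45.0, 29.4 and 80.3, then 29.7 and 93.2. The classes met only at their edges across libraries, and lining was lower in 8 of 8 libraries, with a log2 fold change of -4.07 (SE 0.38, adjusted p = 1.04e-13).

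*Sfrp2* stayed between 0 and 5.16 CPM in every lining library, a mean of 2.87 ± 1.60 (SD, n = 8) against 282 ± 187 (n = 9) in other sublining cells, a log2 fold change of -6.28 (SE 0.78, adjusted p = 5.42e-10). *Sfrp4* ranged from 58.1 to 661 CPM in lining cells, a mean of 299 ± 223 against 2533 ± 1405 (log2 fold change -3.23, SE 0.54, adjusted p = 1.19e-06). Both were lower in 8 of 8 libraries, as were *Wnt5a* (-3.63, SE 0.46), *Wnt9a* (-2.77, SE 0.33) and *Dkk3* (-2.68, SE 0.27) on the log2 scale. *Sfrp1* was lower in 7 of 8 libraries, with a log2 fold change of -1.81 (SE 0.35, adjusted p = 1.85e-05).

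*Wnt16* had no UMI in any lining library, where other sublining cells of the same libraries had 182. Taking 3 UMIs over the class as the limit of a count of 0, it was at least 63.2-fold lower (adjusted p = 2.27e-09). All 182 were in injured libraries, where lining was lower in each, 6 of the 8 compared. In steady state neither class had a *Wnt16* UMI. *Wnt2* had 2 UMIs in lining cells against 59, a ratio of 30.7 (95% counting interval 8.14 to 260, adjusted p = 0.000363). All 9 calls held under every alternative run.

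*Prg4*+ *Thy1*- *Clic5*- cells, which share the lubricin gene with lining cells, were lower in 5 of the 10 genes and higher in none, where 5.77% of all genes were called, 1.72% as higher and 4.05% as lower; the median log2 fold change was -1.58 (-1.83 with bounds) against -0.01 for all genes. *Dkk2* was 26.0 CPM in the Tom+ steady-state library, 6.21, 6.999, 6.20 and 0 in the Tom+ injured libraries and 7.92 in the Tom-GFP+ injured one, with a log2 fold change of -2.83 (SE 0.47, adjusted p = 2.93e-05). *Sfrp1* was lower by the same test (-2.44, SE 0.49, adjusted p = 0.000468).

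The other calls in these cells were less firm. *Sfrp2* (-2.91, SE 0.73, adjusted p = 0.00716) lost its call without Tom+ injured library 2 (-2.33, adjusted p = 0.117). *Wnt16* had 3 against 138 UMIs, a ratio of 20.5 (6.87 to 101, adjusted p = 0.00331), which DESeq2 put at 0.0506. *Sfrp4* (-1.83, SE 0.57, adjusted p = 0.0412) lost its call without any 1 of 7 libraries (Tom+ steady-state 2, Tom-GFP+ steady-state, Tom+ injured 1, 2 and 4, and both Tom-GFP+ injured ones), with adjusted p of 0.0518 to 0.167. *Dkk3*, at 83.1 to 172 CPM, gave -0.07 and no call, unlike in lining cells; the difference between these classes was not tested. *Wnt2* (-0.53, adjusted p = 0.84), *Wnt5a* (-1.33, 0.0784) and *Wnt9a* (-0.63, 0.331) were not called, and *Sfrp5* had no UMI. Of 17 alternatives, *Wnt2* and *Wnt9a* each passed as lower in 1 and *Wnt5a* in 2.

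Universal fibroblasts, the *Dpp4*+ *Pi16*+ cells found in many tissues, were marked by *Wnt2*. Compared with other sublining cells they were higher in *Wnt2* and *Wnt9a* and lower in *Dkk3*, with 9.01% of all genes called, 4.67% as higher and 4.34% as lower. The median log2 fold change of the 10 genes was 0.13 (0.21 with bounds) against -0.01.

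*Wnt2*, a ligand of the β-catenin pathway, was 52.3 and 84.2 CPM in universal fibroblasts of Tom+ steady-state joints and 103 in those of the Tom-GFP+ one, then 14.6, 20.8, 42.5 and 24.4 in the Tom+ injured and 96.1 and 26.7 in the Tom-GFP+ injured ones. In other sublining cells it was 3.24 and 0, then 18.8, then 4.24, 1.12, 6.61 and 0, then 18.6 and 12.1. It was higher in universal cells in 9 of 9 libraries, and the ranges overlapped only in that the lowest universal library lay under the highest other ones. The log2 fold change was 3.02 (SE 0.36, adjusted p = 2.76e-08).

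The share of cells showed the same. With each cell thinned to 3000 UMIs, 12.4% of universal, 1.24% of other sublining, 7.51% of *Lrrc15*+ and 0% of lining cells had a *Wnt2* UMI, against 0 of 92 immune cells. Without thinning the shares were 26.4%, 3.38%, 19.6% and 0.287%. In steady state 318 of 352 stromal *Wnt2* UMIs were in universal fibroblasts. After injury 171 of 527 were there and 234 were in *Lrrc15*+ cells, a class that steady-state libraries lacked.

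*Wnt9a*, a ligand of the developing joint, was 21.2 ± 9.40 CPM in universal against 11.4 ± 4.39 in other sublining cells (n = 9 each), higher in 9 of 9 libraries with a log2 fold change of 0.85 (SE 0.22, adjusted p = 0.00703). When cells were gated after thinning to 3000 UMIs the difference was 0.48 with an adjusted p of 0.269, so the call did not hold with gates set at equal depth. *Dkk3* was 47.7 ± 25.4 against 98.3 ± 31.5 CPM, lower in 9 of 9 libraries (log2 fold change -1.16, SE 0.23, adjusted p = 0.000234). *Sfrp1* gave -0.22 and no call, but -1.53 (adjusted p = 0.00163) with thinned gates. *Wnt5a* (0.21), *Wnt16* (0.05), *Sfrp2* (-0.51), *Sfrp4* (0.47) and *Dkk2* (0.30) were not called between these fibroblast classes, and *Sfrp5* was almost absent from both. The plot of both fibroblast classes by library shows the values.

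**Figure D2:**
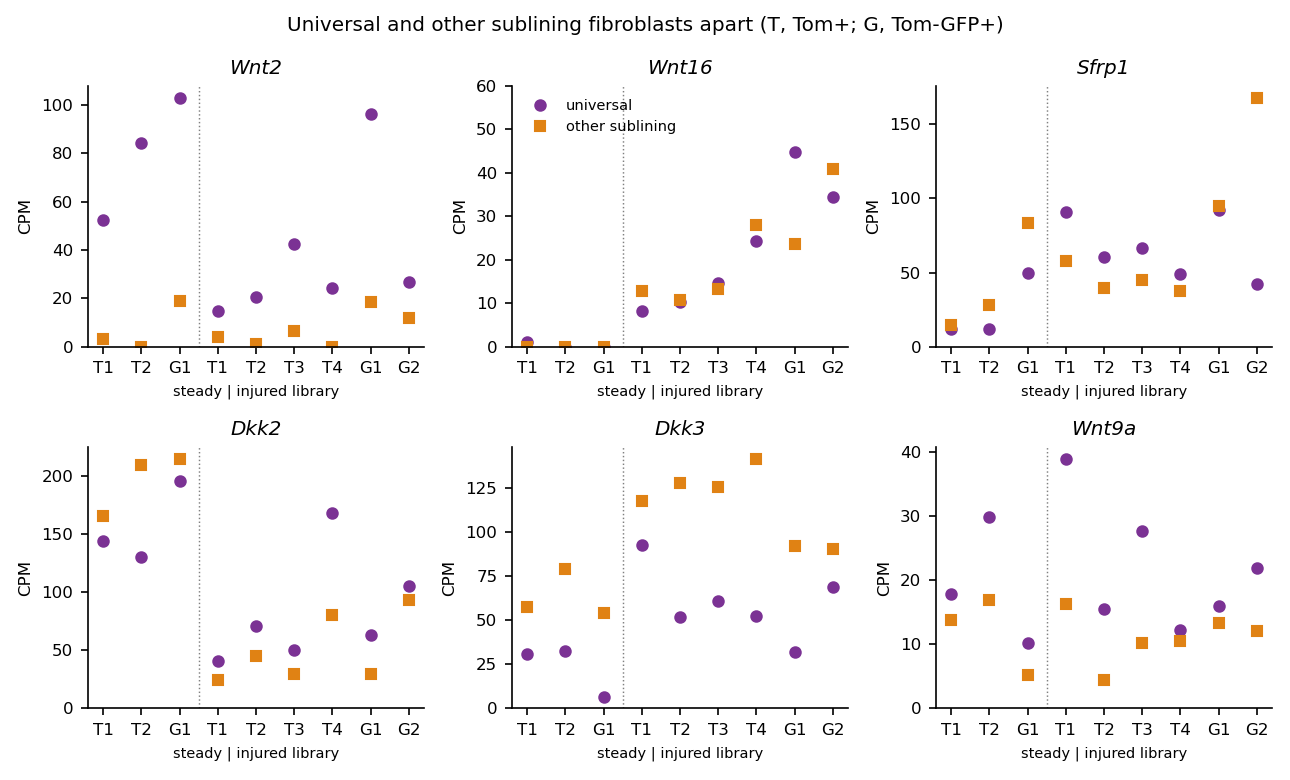
CPM (vertical axes, linear) of *Wnt2*, *Wnt16*, *Sfrp1*, *Dkk2*, *Dkk3* and *Wnt9a* in universal (circles) and other sublining (squares) fibroblasts of each library, 1 point per class sum, with steady-state libraries left of the dotted line (T, Tom+; G, Tom-GFP+). *Wnt2* is higher and *Dkk3* lower in universal than in other sublining cells in all 9 libraries, and *Wnt16* lies at 0 to 1.19 CPM in both classes in steady state.

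*Lrrc15*+ *Adam12*+ cells, present only in the 6 injured libraries, were higher in *Wnt2* and lower in *Dkk2* than other sublining cells. *Wnt2* was 13.2, 7.83, 9.37 and 12.0 CPM among Tom+ and 60.4 and 106 among Tom-GFP+ libraries. It was above the other sublining cells of the same library in 6 of 6, with a log2 fold change of 2.38 (SE 0.42, adjusted p = 0.000327). *Dkk2* was 9.27, 8.95, 7.81 and 51.8, then 19.2 and 10.2 CPM, lower in 6 of 6 libraries (log2 fold change -1.58, SE 0.35, adjusted p = 0.00295).

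Those were the only 2 calls among the 10 genes in *Lrrc15*+ cells, where 5.89% of genes were called, 2.15% as higher and 3.74% as lower, and the median log2 fold change was -0.49 (-0.42 with bounds) against -0.01. Both ended with gates on thinned cells, at 0.34 (adjusted p = 0.935) for *Wnt2* and -1.46 (0.533) for *Dkk2*. *Sfrp4* (-1.60, 0.0733), *Wnt9a* (0.68, 0.105), *Sfrp2* (-0.65), *Wnt5a* (-0.55), *Sfrp1* (-0.42), *Wnt16* (0.20) and *Dkk3* (0.17) did not pass, and *Sfrp5* had no UMI. The plot of log2 fold changes sets these beside the lining and universal results.

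**Figure D3:**
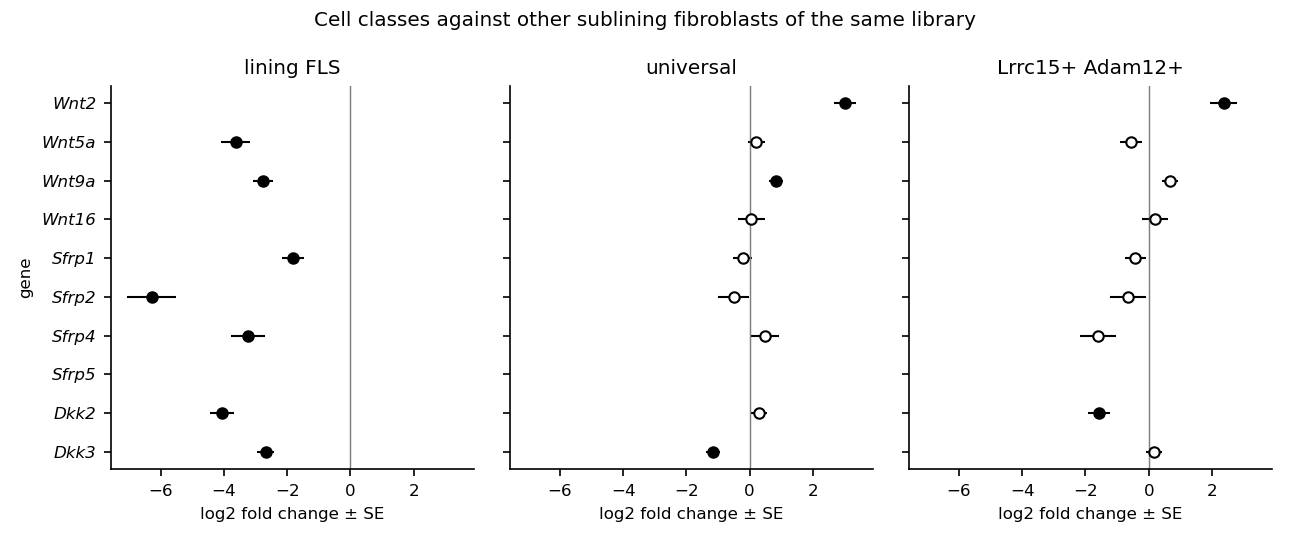
Log2 fold change (points, with bars of 1 SE) of each gene in lining (FLS, fibroblast-like synoviocytes), universal and *Lrrc15*+ *Adam12*+ cells against other sublining cells of the same libraries; filled points passed an adjusted p of 0.05, and genes with 3 or fewer UMIs in a class are not drawn. The lining points lie between -6.28 and -1.81, and the *Wnt2* points of universal and *Lrrc15*+ cells at 3.02 and 2.38.

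Chondrocyte-lineage cells were the class with *Sfrp5*: 33 of its 38 stromal UMIs were there. It reached 87.5 CPM in Tom-GFP+ steady-state cells, 22.4 in Tom+ injured library 3 and 269 in Tom-GFP+ injured library 1, and 0 in the other 4 libraries of the class. Against 1 UMI in other sublining cells, the ratio was 339 (56.7 to 13774), with an adjusted p of 0.000126 by edgeR and 0.44 by DESeq2, so it rests on a few libraries. Of the other genes 4 were lower: *Sfrp4* (-4.32, SE 0.69, adjusted p = 1.62e-06), *Dkk2* (-2.95, SE 0.61), *Sfrp1* (-2.28, SE 0.71, adjusted p = 0.0125) and *Wnt9a*, with 1 UMI against 111 (ratio 10.8, 1.90 to 431, adjusted p = 0.00238). In this comparison 22.3% of genes were called, 9.36% as higher and 12.9% as lower, and the median was -2.62 (-2.25 with bounds) against -0.10. With cells that met more than 1 gate left out, the adjusted p was 0.0756 for *Sfrp1* and 0.0577 for *Wnt9a*. *Sfrp2* (-0.95, adjusted p = 0.348) and *Dkk3* (-0.48, 0.314) did not pass. Neither did *Wnt5a* with 3 UMIs against 143, *Wnt16* with 1 against 138 and *Wnt2* with 0 against 64 (0.0568, 0.0723 and 0.167).

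Osteoblast-lineage cells had the highest mean *Wnt5a* of the gated classes. It measured 147 and 58.7 CPM in Tom+ and 72.4 in Tom-GFP+ cells at steady state, and 35.3, 25.2 and 20.5 in Tom+ injured libraries 1, 2 and 4, above the other sublining cells in 6 of 6. The log2 fold change was 2.01 (SE 0.33, adjusted p = 2.55e-06). Of the cells thinned to 3000 UMIs, 12.5% had a *Wnt5a* UMI, against 4.37% of other sublining, 5.79% of universal and none of 92 immune cells.

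Of the 6 antagonists among the 10 genes, 4 were lower in these cells. *Dkk2* (-4.90, SE 0.70, adjusted p = 1.09e-07), *Sfrp2* (-4.17, SE 0.98, adjusted p = 0.000867) and *Sfrp4* (-3.61, SE 0.66, adjusted p = 1.95e-05) were lower, and *Sfrp1* had 2 UMIs against 373, a ratio of 29.7 (8.18 to 247). *Wnt9a* was also lower (-1.64, SE 0.54, adjusted p = 0.0206), but lost its call in 9 alternatives: without Tom+ steady-state library 2 (0.108), Tom+ injured library 1 (0.0521) or 4 (0.0595), without cells of more than 1 gate (-0.89, 0.421), without *Col2a1*-high cells (0.176), with thinned gates (0.196), sums of at least 20 cells (0.126) or stricter cell filters (0.0607), and by DESeq2 (0.0573). *Dkk3* (-0.72, adjusted p = 0.108) and *Wnt16* (0.85, 0.475) did not pass, nor did *Wnt2* with 0 UMIs against 34 (0.122). *Sfrp5* was called as higher on 4 UMIs against 1, a ratio of 25.1 (2.48 to 1235, adjusted p = 0.0219), and its sign turned without cells of more than 1 gate (-0.11, 0.984). The call also ended without the *Col2a1*-high cells (0.982), with thinned gates (0.109), without Tom+ injured library 1 (0.128) or 4 (0.0609) and by DESeq2 (0.689). That made 2 higher and 5 lower of 10, where 20.6% of genes were called, 9.37% and 11.2% by direction; the median was -2.63 (-1.25 with bounds) against -0.04.

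**Figure D4:**
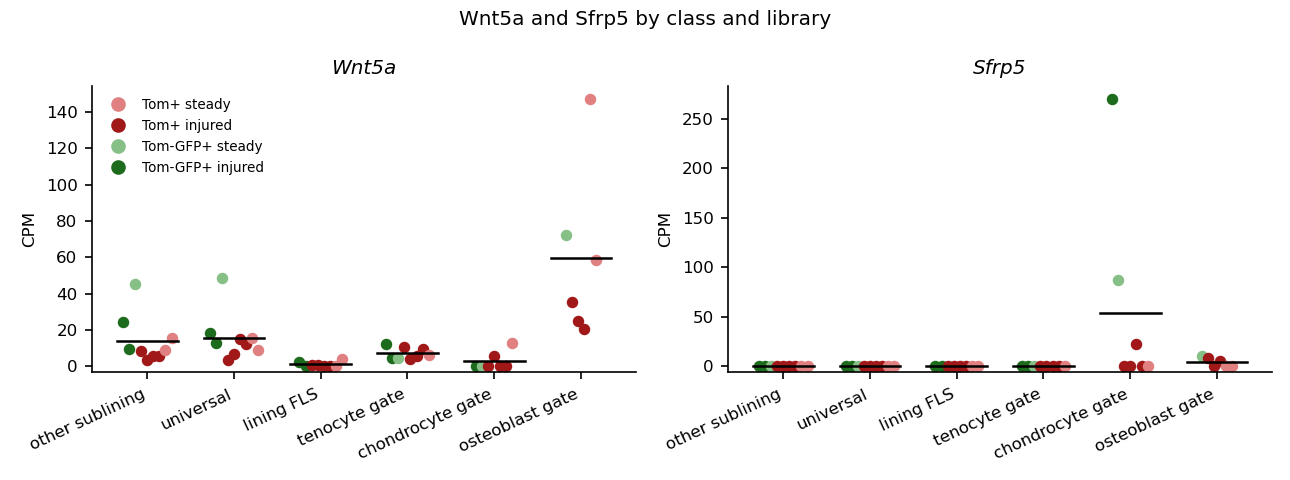
CPM (vertical axis, linear) of *Wnt5a* and *Sfrp5* in 6 cell classes, 1 point per library coloured by group and a line at the class mean. *Wnt5a* is highest in osteoblast-lineage cells, with a mean of 59.8 CPM, and *Sfrp5* is above 0 in 3 of 7 chondrocyte-lineage libraries.

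Tenocyte-lineage cells differed little from other sublining cells. *Sfrp4* was lower in 8 of 8 libraries (-1.66, SE 0.51, adjusted p = 0.0348), the only call among the 10, where 6.13% of genes were called, 2.71% as higher and 3.43% as lower; the median was -0.32 (-0.18 with bounds) against -0.01. It ranged from 53.7 to 2164 CPM, and the call ended without Tom+ injured library 2 (0.133) or 4 (0.0863), without Tom-GFP+ injured library 1 (0.172) or 2 (0.0904) and by DESeq2 (0.0549). *Dkk3*, at 97.1 to 217 CPM, was above the other sublining cells in 8 of 8 libraries but did not pass (0.56, SE 0.22, adjusted p = 0.136). *Wnt2* (-1.24), *Wnt5a* (-0.45), *Wnt9a* (0.38), *Wnt16* (0.21), *Sfrp1* (-0.18), *Sfrp2* (0.12) and *Dkk2* (-0.65) did not pass either, with adjusted p of 0.194 to 0.972, and *Sfrp5* had no UMI.

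Mural cells, the contractile cells of vessel walls, were compared in 3 libraries with 77 cells. These were Tom+ injured libraries 1, 2 and 4, so no steady-state or Tom-GFP+ library entered. *Dkk2* had no UMI against 260 in other sublining cells of those libraries, at least 16.3-fold lower (adjusted p = 0.000312). *Sfrp4* (-5.88, SE 1.06, adjusted p = 1.75e-05) and *Dkk3* (-3.29, SE 0.54, adjusted p = 2.72e-06) were lower, and *Sfrp1* (-3.20, SE 0.86, adjusted p = 0.00472) too. *Sfrp2* had 2 UMIs against 860 (ratio 80.8, 22.3 to 669, adjusted p = 0.00852) and *Wnt9a* 1 against 50 (ratio 9.40, 1.61 to 379, adjusted p = 0.00123). Without Tom+ injured library 1 the adjusted p was 0.176 for *Sfrp1*, 0.0763 for *Sfrp2* and 0.0521 for *Wnt9a*, and without Tom+ injured library 2 it was 0.0955 for *Sfrp2*. *Wnt16* with 0 UMIs against 88 (0.0511), *Wnt5a* (-0.38, 0.795) and *Wnt2* with 0 against 8 (0.413) did not pass, and *Sfrp5* had no UMI in either. These 6 of 10 lower genes stood beside 17.7% of genes called, 8.11% as higher and 9.55% as lower, with a median of -3.95 (-3.23 with bounds) against -0.04.

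Among other sublining cells, marker subsets differed in level, given here without a test because the subset scores and these genes come from the same cells. Cells scoring for *C7*, *Fmo2* and *Kitl* (95, of which the Tom-GFP+ steady-state library held 35, and 42 were in Tom-GFP+ injured library 1) had *Sfrp4* at 8204 ± 668 CPM, *Wnt5a* at 80.4 ± 8.66 and *Sfrp2* at 1009 ± 1117 (SD, n = 2 libraries). *Cxcl12* subset cells (265) had *Dkk2* at 65.0 to 735 CPM in 7 libraries, with a median of 151; the Tom-GFP+ steady-state library was the one at 735 and the others reached at most 238. *Dkk2* was left out of the score that chose them. *Anxa8* subset cells (188) had *Dkk3* at 127 ± 28.5 CPM and *Dkk2* at 21.4.

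To ask whether the genes changed with injury, universal and other sublining fibroblasts were summed per library (2013 cells) and the 4 groups fitted together; *Sfrp5* was too sparse, leaving 9 genes. In Tom+ fibroblasts *Wnt16*, *Sfrp1* and *Dkk3* rose and *Wnt2* and *Dkk2* fell. That was 3 higher and 2 lower of 9, where 12.8% of 11775 genes were called, 4.64% as higher and 8.18% as lower; the median log2 change was -0.53 against -0.02. The change in level and a change in which fibroblasts the sum held cannot be told apart in the sum alone. For genes called in Tom+ fibroblasts, fits in the classes alone are also given, for *Dkk3* in universal fibroblasts only. In Tom-GFP+ fibroblasts such a fit is given only for *Dkk3*, in other sublining cells. No such fit is given for the uncalled genes or for pathway genes. Universal fibroblasts, which had more *Wnt2* and less *Dkk3*, were a smaller share of the sums after injury in both lineages. Of the summed Tom-GFP+ cells they made up 50.6% without injury, against 35.6% and 38.3% after it. The part of this share in the changes was not tested. With the gene-list format as a block, the Tom+ injury effect rested on Tom+ injured library 1 against the steady-state libraries. The Tom-GFP+ injury effect then borrowed the difference between formats among the Tom+ injured libraries. Where injured and steady-state libraries are said not to overlap, the share of all genes without overlap was not counted. That wording is description only.

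*Wnt16*, a ligand known from bone and the developing joint, was 0.482 and 0 CPM in the steady-state Tom+ libraries and 11.3, 10.6, 13.7 and 26.9 in the injured ones. The groups did not overlap: 1 UMI stood against 145, a ratio of 77.5 (13.7 to 3081, adjusted p = 0.00224). It rose in universal fibroblasts alone (adjusted p = 0.00843) and in other sublining cells alone (0.0059), and in every fit that left out 1 library (0.00031 to 0.0315).

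In the Tom-GFP+ fibroblasts *Wnt16* was 0 CPM in the steady-state library and 32.4 and 38.6 in the injured ones, with 0 against 140 UMIs, at least 32.0-fold higher (adjusted p = 0.0105); without Tom-GFP+ injured library 2 the adjusted p was 0.0549. Over all stromal cells, *Wnt16* had 18 UMIs in steady state, 15 of them in the osteoblast-lineage gate, at 7.35 and 14.0 CPM in the Tom+ and 93.1 in the Tom-GFP+ library. It had 588 in injured joints, 285 of them in fibroblasts, 152 in *Lrrc15*+ cells, 132 in tenocyte-lineage and 3 in osteoblast-lineage cells. In *Lrrc15*+ cells, which steady-state libraries lacked, it was 5.30 to 44.7 CPM.

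*Sfrp1*, a Wnt-binding antagonist, was 13.5 and 20.03 CPM in steady-state Tom+ fibroblasts and 68.0, 44.6, 51.0 and 40.9 in injured ones. The groups did not overlap, and the log2 change was 1.55 (SE 0.26, adjusted p = 0.00469). Within universal fibroblasts it was 2.42 (adjusted p = 0.00243), and within other sublining cells 1.03 (0.0756); without Tom+ steady-state library 1 the change over both was 1.31 (0.0593).

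*Dkk3* was 46.8 and 56.0 CPM in steady state and 110, 109, 107 and 114 after injury, with no overlap and a log2 change of 1.06 (SE 0.17, adjusted p = 0.00377). It was 0.96 (adjusted p = 0.126) in universal fibroblasts alone and 0.95 (0.0524) without Tom+ steady-state library 1. In Tom-GFP+ fibroblasts it was 26.7 in the steady-state library and 67.5 and 82.5 in the injured ones, a log2 change of 1.44 (SE 0.26, adjusted p = 0.0225). This call ended without Tom-GFP+ injured library 1 (0.0514) or 2 (0.104) and in other sublining cells alone (0.73, adjusted p = 0.205), with the gene-list format as a block (1.37, 0.0554) and with *Lrrc15*+ and cycling cells added (0.0578).

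*Wnt2* was 23.1 and 41.9 CPM in steady-state Tom+ fibroblasts and 7.39, 5.94, 16.8 and 7.58 in injured ones. The groups did not overlap, and the log2 change was -1.86 (SE 0.45, adjusted p = 0.0232). In universal fibroblasts alone it was -1.48 (adjusted p = 0.0789), and in other sublining cells alone the sign turned, at 0.75 (0.753). The fall in the sum moved with the share of universal fibroblasts, the summed class with more *Wnt2*. In Tom+ libraries they were 37.2% and 43.8% of the summed cells in steady state and 22.3% to 29.8% after injury. The part of this share in the fall was not tested. The call also ended with the gene-list format as a block (-2.23, adjusted p = 0.0755) and without Tom+ steady-state library 2 (-1.37, 0.239), Tom+ injured library 2 (-1.65, 0.0688) or Tom+ injured library 4 (-1.74, 0.0609).

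*Dkk2*, an antagonist acting on the Lrp co-receptors, was 157 and 170 CPM in steady state and 29.1, 51.4, 35.2 and 108 after injury in Tom+ fibroblasts, with no overlap. The log2 change was -1.56 (SE 0.46, adjusted p = 0.0475). It was -2.07 (adjusted p = 0.0153) in other sublining cells alone and -0.72 (0.426) in universal fibroblasts alone. With the gene-list format as a block, which sets Tom+ injured library 1 alone against steady state, it was -2.58. Leaving out Tom+ steady-state library 1 (0.161) or 2 (0.2), or Tom+ injured library 2 (0.108) or 3 (0.101), ended the call, as did stricter cell filters (0.0607), thinned gates (0.0785), leaving out the top Scrublet scores (0.058) and adding *Lrrc15*+ and cycling cells (0.085).

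*Wnt5a* (-0.85, adjusted p = 0.127), *Wnt9a* (-0.53, 0.387), *Sfrp2* (-0.99, 0.297) and *Sfrp4* (0.58, 0.607) were not called in Tom+ fibroblasts. *Wnt5a* did not overlap between the groups either, at 11.6 and 12.2 CPM in steady state and 4.24 to 8.41 after injury. The others overlapped. *Sfrp4* ranged from 538 to 4910 CPM among the Tom+ injured libraries. Its lowest value was in Tom+ injured library 1, the injured library with the older gene-list format. With the format as a block, which sets that library alone against steady state, the change of *Sfrp4* was -1.87. *Sfrp2* was -1.66 (0.045) without Tom+ injured library 2.

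In Tom-GFP+ fibroblasts *Wnt16* and *Dkk3* were the 2 of 9 that rose and none fell, where 3.01% of genes were called, 0.577% as higher and 2.43% as lower, and the median was 0.72 against -0.02. The single steady-state library of this arm was assumed to vary like the other groups. *Wnt5a*, at 47.1 CPM in steady state and 21.9 and 10.5 after injury, gave -1.56 (SE 0.38, adjusted p = 0.0551), and -1.80 (0.0239) with the *C7* subset cells left out. *Dkk2* was 204, then 43.4 and 97.7 CPM (-1.58, adjusted p = 0.23). *Wnt2* (-1.0), *Wnt9a* (0.86), *Sfrp1* (0.70), *Sfrp2* (0.72) and *Sfrp4* (1.37) did not pass, with adjusted p of 0.299 to 0.718.

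Markers of other cells moved with injury in the same fibroblast sums. Of the 12 osteoblast-list genes, which include *Col1a1* and *Spp1*, 10 to 11 were detected in steady state and 9 to 11 after injury, and their summed level was 1945 to 3040 CPM and 6577 to 9954 CPM. The 10 mural genes went from 31.3 to 46.8 to a range of 83.3 to 188, and the 7 cycling genes from 0.964 to 1.83 to a range of 11.0 to 36.0. Immune genes were at 0.482 to 1.48 and 0 to 2.92 CPM. The part of these markers, and of the higher depth per fibroblast after injury (medians of 8321 to 14647 against 8043.5 to 8750 UMIs), in the changes was not tested.

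**Figure D5:**
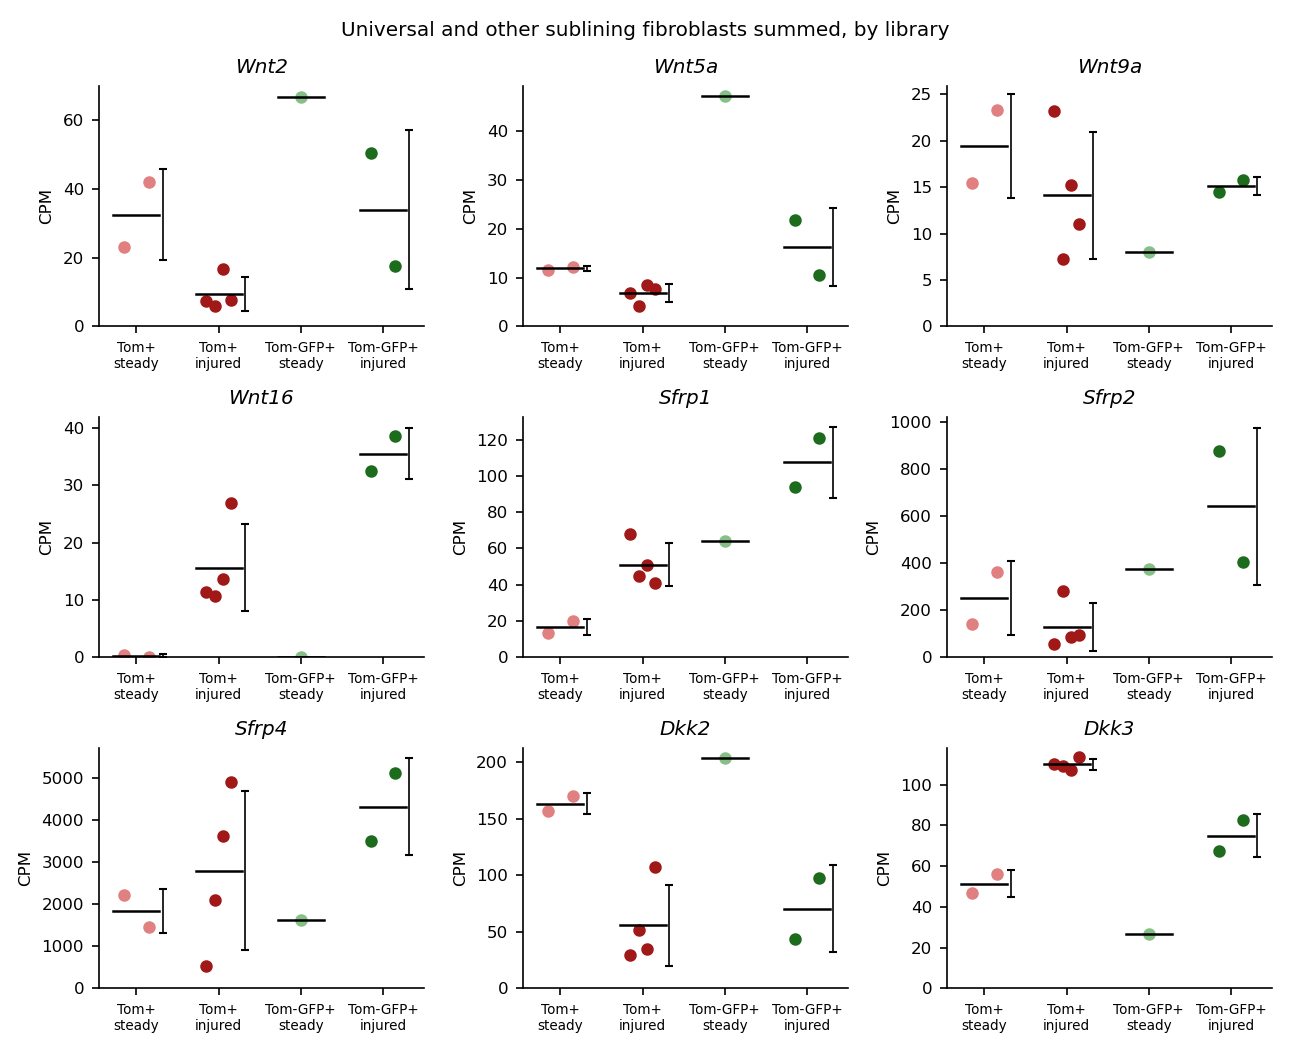
CPM (vertical axes, linear, 1 panel per gene) of 9 genes in universal and other sublining fibroblasts summed per library, by group, with a line at the group mean and bars of 1 SD where a group has more than 1 library. *Wnt16* is at 0 to 0.482 CPM in the 3 steady-state libraries and at 10.6 to 38.6 in the 6 injured ones.

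Between the lineages none of the 9 genes passed the test. In injured fibroblasts, Tom+ minus Tom-GFP+ was -1.85 for *Wnt2* (adjusted p = 0.313), -2.25 for *Sfrp2* (0.328), -1.04 for *Sfrp1* (0.225), -1.24 for *Wnt5a* (0.359), -1.11 for *Wnt16* (0.57) and 0.59 for *Dkk3* (0.421). For these 6 genes the 4 Tom+ and 2 Tom-GFP+ libraries did not overlap, the Tom+ values lying above for *Dkk3* and below for the others. The share of all genes without overlap between these libraries was not counted, so no lineage difference is read from this. *Wnt9a* (-0.08), *Sfrp4* (-0.58) and *Dkk2* (-0.27) had adjusted p of 1. The test called 0.00849% of genes at all, 1 gene, while 5.95% had an unadjusted p below 0.05, so it called little anywhere. The median was -1.04 against 0.01. In *Lrrc15*+ cells the Tom+ values of *Wnt2* (7.83 to 13.2) were all below the Tom-GFP+ ones. This was not tested, and the share of all genes without overlap was not counted there either.

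In steady state, with 1 Tom-GFP+ library, 0.034% of genes and none of the 9 were called, 5.92% having an unadjusted p below 0.05; the median was -0.29 against 0. *Sfrp1* was 13.5 and 20.03 CPM in Tom+ and 64.0 in Tom-GFP+ fibroblasts (-1.89, SE 0.33, adjusted p = 0.0938; DESeq2 0.0189), and *Wnt5a* 11.6 and 12.2 against 47.1 (-1.95, adjusted p = 0.107). The differences were -0.998 for *Wnt2*, 1.31 for *Wnt9a*, -0.55 for *Sfrp2*, 0.21 for *Sfrp4*, -0.29 for *Dkk2* and 0.98 for *Dkk3*, with adjusted p of 0.271 to 1; *Wnt16* had 1 UMI in all. *C7* subset cells, which had high *Wnt5a*, were 1.6% to 2.5% of the Tom+ steady-state fibroblasts and 10.2% of the Tom-GFP+ ones; with those cells left out *Wnt5a* differed by -1.88 (0.0831). No injury effect was called as different between the lineages (0% of genes by edgeR, 2.64% with an unadjusted p below 0.05).

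In Tom+ lining cells 3 genes could be tested for injury, and none was called, where 4.87% of 9426 genes were, 20.6% having an unadjusted p below 0.05. *Sfrp1* was 0 CPM in both steady-state libraries and 41.3, 57.3, 7.43 and 5.52 in the injured ones, 0 against 281 UMIs, a fold of at least 7.80 without overlap, which did not pass by edgeR (adjusted p = 0.198; DESeq2 0.0117). *Sfrp4* (-1.20, SE 0.60, adjusted p = 0.28) and *Dkk3* (-0.85, SE 0.57, adjusted p = 0.436) were within the spread. *Wnt16* stayed at 0 UMIs in lining cells in both states. The median of the 3 was -0.85 against -0.02.

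Other genes of the pathway, 77 listed of which 49 were tested between classes, were counted to set the members in context. In lining cells 6 were higher and 16 lower, where 37.7% of all genes were called, 8 of the lower ones among 15 receptors and co-receptors, such as *Fzd2* (-3.19, SE 0.25, adjusted p = 1.36e-16). The agonist *Rspo4*, an R-spondin, had 168 UMIs against 3 (ratio 53.8, 18.1 to 263), and its receptor gene *Lgr6* 29 against 0, at least 9.28-fold higher. The feedback inhibitors *Nkd2* (3 against 98, ratio 34.0 lower, 11.3 to 168) and *Apcdd1* (3 against 66, ratio 22.9 lower, 7.51 to 114) and the Frizzled ligand *Ndp* (-3.21, SE 0.58) were lower. In *Prg4*+ *Clic5*- cells 2 were higher, the Wnt-binding inhibitor *Wif1* (3.37, SE 0.76, adjusted p = 0.00214) and *Rspo2* (1.29, adjusted p = 0.0301), and 7 lower, where 5.77% of all genes were called.

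Beside each count stands the share of all genes called. Universal fibroblasts (9.01%) had 2 higher, both ligands, *Wnt10b* (3.47, SE 0.40, adjusted p = 1.49e-09) and *Wnt11* (1.35, adjusted p = 7.13e-05), and 6 lower, among them *Wnt5b* (-1.99, adjusted p = 0.00112) and the targets *Wisp1* (-1.64) and *Wisp2* (-1.34). *Lrrc15*+ cells (5.89%) had 1 higher, *Wisp1* (1.14, adjusted p = 0.00134), and 2 lower, *Fzd4* (-1.93) and *Lrp6* (-1.12). Tenocyte-lineage cells (6.13%) had 1 higher, *Wif1* (2.63, adjusted p = 0.0114), and 3 lower.

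Chondrocyte-lineage cells (22.3%) had 10 higher and 5 lower. *Wif1* was higher by 7.93 (SE 0.66, adjusted p = 5.35e-15), *Notum*, which removes the lipid from Wnt proteins, by 6.69 (SE 0.73) and *Fzd9* by 6.46 (SE 0.45) on the log2 scale, and the transcription factor *Lef1* had 58 UMIs against 0, at least 198-fold higher. Osteoblast-lineage cells (20.6%) had 20 higher and 4 lower: the antagonist *Dkk1* had 91 UMIs against 0, at least 190-fold higher, and *Rspo4* 62 against 1 (ratio 389, 67.2 to 15600). Of the 5 listed antagonists outside the 10 genes that were tested, 4 were higher in these cells and 1 lower. Among the higher ones were *Frzb* (6.08, SE 0.64) and *Wif1* (6.04, SE 0.68). Thus *Dkk1* and *Dkk2* differed in opposite directions between osteoblast-lineage and other sublining cells. *Frzb*, *Wif1* and *Rspo4* were also called as higher in chondrocyte-lineage cells. The osteoblast-lineage gate held cartilage-like cells too, and no fit of pathway genes without the *Col2a1*-high cells is given. Mural cells (17.7%) had 3 higher and 6 lower, a share near that of all genes, as it was in *Lrrc15*+ cells.

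After injury 44 of the listed pathway genes could be tested in fibroblasts. In Tom+ cells 7 rose and 7 fell, where 4.64% of all genes rose and 8.18% fell. *Wisp1*, a Wnt target, rose by 5.34 (SE 0.52, adjusted p = 0.000356) and *Rspo2* by 2.62 (SE 0.66, adjusted p = 0.0258). The ligands *Wnt10b* (-2.78, SE 0.46, adjusted p = 0.00401) and *Wnt11* (-1.55, SE 0.23, adjusted p = 0.0028) fell, as did *Ccnd1* (-1.52) and *Apcdd1* (-1.47). Both ligands were higher in universal fibroblasts, whose share of the summed Tom+ cells was lower after injury. The part of this share in their fall was not tested. Of the 10 target and feedback genes, 5 fell and 2 rose. In Tom-GFP+ cells, where 3.01% of all genes were called, *Rspo2* (5.08, SE 1.17, adjusted p = 0.0454) and *Wisp1* (3.65, SE 0.63, adjusted p = 0.0203) rose and *Ccnd1* (-2.49, SE 0.48, adjusted p = 0.0269) fell. In Tom+ lining cells 1 of 32 passed, beside 4.87% of all genes: *Wisp2*, which rose by 2.29 (SE 0.38, adjusted p = 0.0115). None was called between lineages.

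The genes with the most similar profiles over the 73 library and class sums, among 7982 genes, are given as Pearson's r of log2 CPM, without a test, since the sums share libraries, depth and the gates. *Wnt2* was closest to *Dpp4* (0.754), which is itself a gate gene of universal fibroblasts, *Tmeff2* (0.746) and *Lgi2* (0.736). *Wnt16* was closest to *Ptn* (0.632), *Ptx3* (0.628) and *Cpxm1* (0.627), and *Wnt5a* to *Angpt1* (0.641), *Rnf144a* (0.626) and *Fst* (0.624). *Wnt9a* went with *AW551984* (0.735), *Gm765* (0.73) and *Rnase4* (0.684).

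Of the antagonists, *Sfrp4* was closest to the complement genes *C4b* (0.793) and *C3* (0.758) and to *Igfbp6* (0.758). *Sfrp2* was closest to *Il33* (0.778), *Igfbp3* (0.752) and *Mfap4* (0.748), and *Sfrp1* to *Mfap4* (0.629), *Arsi* (0.621) and *AW551984* (0.605). *Dkk2* was closest to *Apod* (0.766), *Ltbp4* (0.764) and *Adam33* (0.744), *Dkk3* to *Lum* (0.767), *Avpi1* (0.758) and *Plpp1* (0.755), and *Sfrp5* to *Gm525* (0.786), *R3hdml* (0.704) and *Mia* (0.691), the latter on few UMIs.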

How the data were processed

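Droplet libraries (10x Genomics 5′ kit, version 2) were deposited as matrices of UMI counts per gene and cell, 9 libraries in 4 groups. Per the submitters' processing notes the authors used Cell Ranger and GRCm38.p6; 5 matrix headers name version 3.0.2. Groups were taken from the labels. Cells were kept from 500 genes and 1000 UMIs upwards, with up to 10% of UMIs mitochondrial, and gated on markers in a fixed order, a cell taking the earliest gate it met (99 met more than 1). Scrublet called 40 doublets, which were not removed. UMIs were summed per library and class (at least 10 cells; 73 sums), and tested with edgeR 4.0.16 (R 4.3.3; TMM, filterByExpr, quasi-likelihood) with library as a block between classes and group alone within fibroblasts or lining cells. Calls had an adjusted p below 0.05 over all genes tested. CPM values are UMIs per 1000000 of the class sum, with means and SD over libraries; levels were not compared between genes. A count of 0 was bounded by 3 UMIs over the class, and ratios with 1 to 3 UMIs have exact 95% intervals; both cover counting error only. Shares of cells used cells thinned to 3000 UMIs. The labels do not tie libraries to mice, but the study gives as many mice as libraries in each group. Within fibroblasts or lining cells, the p-values measure the spread between these libraries, which may be partly technical. Between classes, the library block takes that spread out. Those p-values measure what is left between class sums of the same libraries, estimated over all 73 sums together. A class in few libraries, such as mural cells, therefore drew its spread largely from the other classes. Because the Tom-GFP+ mice were matched, a Tom+ and a Tom-GFP+ library may come from the same animal, so libraries may not all be independent. Fewer cells of a type inside a gate and less RNA per cell cannot be told apart in a sum.

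The genes and pathway lists were chosen with earlier results of these data known. Every listed gene that could be tested was eligible to be named in each comparison; of the pathway genes, up to 6 with the largest change among those called were eligible to be named, and for likeness the 3 highest correlations. Alternatives were DESeq2 1.42.0, other cell filters, no filter on low counts, thinned gates, top Scrublet scores, cells of more than 1 gate or sums under 20 cells left out, *Lrrc15*+ and cycling cells added, gene-list format or replicate number as a block, and each library left out; fits in each fibroblast class alone, without *C7* subset cells, or without *Col2a1*-high or *Prg4*-high cells were added after seeing the data. Reporter rows, immune and endothelial cells entered no fit. Tests were checked on simulated data.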

Additional observations from a re-analysis of the deposited data

Results flagged for a closer look

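In 5 of 26 groups of 4 Tom+ injured libraries examined, 1 library stood apart from the others by Dixon's criterion, which chance alone meets in about 1 in 20 groups. In fibroblasts, *Wnt2* was 16.8 CPM in Tom+ injured library 3 against 5.94 to 7.58 in the others, and *Sfrp2* was 279.7 CPM in Tom+ injured library 2 against 56.7 to 94.3. In *Lrrc15*+ cells, *Dkk2* was 51.8 CPM in Tom+ injured library 4 against 7.81 to 9.27, and *Wnt9a* was 9.37 CPM in Tom+ injured library 3 against 23.5 to 24.6. In lining cells, *Wnt2* was 0.339 CPM in Tom+ injured library 2, which is 1 UMI, against 0 in the others.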

How the results depend on the processing

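Of 128 gene-by-comparison results, 45 were called; 24 kept call and direction in every alternative and 21 lost the call in at least 1. Of the 83 uncalled, 34 passed in at least 1 alternative, and of 2359 alternative values 60 changed sign without passing. Apart from those, the sign turned in 3 alternatives where the main or the alternative fit passed. With the gene-list format as a block, which rests on Tom+ injured library 1, it turned for *Sfrp4* in Tom+ fibroblasts (-1.87). It also turned for *Sfrp5* in osteoblast-lineage cells without cells of more than 1 gate (-0.11). The last was *Wnt2* after injury in Tom+ other sublining cells alone (0.75). The cause was not tested.

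Counts of all genes called, with the range when each library was left out, were 2192 (1750 to 2294) for chondrocyte-lineage, 3707 (3355 to 3584) for lining, 579 (300 to 696) for *Lrrc15*+, 1736 (912 to 1737) for mural, 2021 (1673 to 1976) for osteoblast-lineage, 567 (314 to 545) for *Prg4*+ *Clic5*-, 603 (321 to 575) for tenocyte-lineage and 886 (684 to 879) for universal cells. They were 1509 (480 to 1832) for injury in Tom+ fibroblasts, 354 (21 to 807) in Tom-GFP+ fibroblasts, 459 (52 to 613) in Tom+ lining cells, 1 (1 to 28) for lineage in injured and 4 (0 to 92) in steady-state fibroblasts, and 0 (0 to 1) for the difference between injury effects.

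Thinned gates gave 13 (*Lrrc15*+), 1187 (osteoblast), 1162 (*Prg4*+), 396 (tenocyte) and 5 (lineage, injured). No filter on low counts gave 930 (*Lrrc15*+), 916 (*Prg4*+), 1015 (tenocyte), 1208 (Tom-GFP+ injury), 1149 (lining injury), 2283 (Tom+ injury), 75 (interaction), 309 and 317 (lineage, injured and steady). Sums of at least 20 cells gave 923 (*Lrrc15*+) and 908 (tenocyte). In osteoblast-lineage cells, leaving out *Col2a1*-high cells gave 1229 and cells of more than 1 gate 1158. Universal fibroblasts alone gave 493 (Tom+ injury), 185 (Tom-GFP+ injury) and 2 (lineage, injured), and other sublining cells alone 197 (Tom-GFP+ injury) and 5 (lineage, injured). Adding *Lrrc15*+ and cycling cells gave 157 (Tom-GFP+ injury) and 2 (lineage, steady), leaving out *C7* cells 7, DESeq2 29 and 28 (lineage), and the format block 84 (lineage, steady) and 91 (lining injury).

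In same-numbered libraries of different groups, deviations from the group mean correlated at -0.074 to 0.143. In a group of 2 libraries these deviations mirror each other, so the values cannot tell whether such libraries shared a mouse. The replicate block gave 882 (Tom+ injury), 213 (lining injury) and 12 (lineage, injured) calls. Genes of few UMIs, such as *Sfrp5*, are limited by depth.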
